A study of Mus musculus with 4 samples.

Results

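Voltage-gated sodium channels open on depolarisation and carry the rising phase of the action potential. Each channel is a large pore-forming alpha subunit joined by smaller beta subunits, and FGF homologous factors such as Fgf14 bind the intracellular tail of the alpha subunit and tune its gating. The genes described here are the rows of the deposited count table for 4 alpha subunits (Scn1a, Scn2a1, Scn3a and Scn8a), 3 beta subunits (Scn2b, Scn3b and Scn4b) and Fgf14, chosen by gene symbol. All 8 were found among the 24015 genes of the table, with Scn2a under its older symbol Scn2a1. All 8 also passed the filter on low counts, as did 15117 genes in all.

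The libraries came from dissected cerebella of C57BL/6N mice aged 140 to 150 days. The heterozygotes (HT) carried 1 knockout copy of Arid1b, a gene for a large subunit of BAF chromatin remodelling complexes, and their wild-type (WT) littermates carried none. Each genotype had 1 female and 1 male library, and the study asked how loss of 1 Arid1b copy changes expression in the cerebellum. The labels name no treatment, and which part of Arid1b is deleted and any Cre driver are not stated in them. They do not name individual animals either, but each of the 4 libraries has its own combination of genotype and sex. No animal can therefore have given more than 1 of them. The p-values speak for the spread among these 4 libraries, in which differences between animals and technical differences cannot be told apart.

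In the cerebellum, the channel of Scn1a (Nav1.1) is known for Purkinje cells and fast-spiking inhibitory neurons, and that of Scn2a1 (Nav1.2) for the thin unmyelinated axons of granule cells. The channel of Scn8a (Nav1.6) sits at axon initial segments and nodes of Ranvier and carries much of the resurgent current of Purkinje cells, a brief inward current on repolarisation that favours repeated firing. The tail of the beta subunit encoded by Scn4b is a candidate blocking particle for that current. Scn3a (Nav1.3) and Scn3b are best known from embryonic and early postnatal brain. Variants that disrupt FGF14 cause a spinocerebellar ataxia in humans.

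Total counts were 15950899 in the HT female, 20287016 in the HT male, 20616219 in the WT female and 16453759 in the WT male. Levels are counts per 1000000 counts of a library (CPM), and 3 counts, the level below which a gene counts as not detected, correspond to 0.146 to 0.188 CPM. Arid1b stood at 55.8 CPM in the HT female and 52.9 CPM in the HT male, against 71.0 CPM in the WT female and 69.9 CPM in the WT male. Both heterozygotes lay below both wild types, with a log2 change of -0.37 ± 0.11 (SE, edgeR, adjusted p = 0.243) that missed the threshold of 0.05. Defining markers of the cerebellum were present in each library: Gabra6 of granule cells lay between 329 and 502 CPM, and Pcp2 of Purkinje cells between 132 and 209 CPM. The WT female had the lowest level of 32.0% of the tested genes and the highest level of 29.7%, the largest shares of the 4 libraries.

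The genes lie on 4 chromosomes. The stretches before the starts of Scn1a and Scn2a1 are shown here because the ratio of this pair, given further on, did not overlap between the genotypes. In GRCm38, with GENCODE M21 gene models, Scn2b and Scn4b lie on the plus strand of chromosome 9 at chr9:45117782-45130070 and chr9:45138395-45154152, with 8.32 kb between them. Scn3b lies farther off on the same chromosome at chr9:40269217-40291618. Scn3a (chr2:65457118-65567627), Scn2a1 (chr2:65620771-65767447) and Scn1a (chr2:66270778-66440840) share a cluster on chromosome 2, in which Scn3a and Scn1a are read from the minus strand and Scn2a1 from the plus strand. Scn8a lies at chr15:100869858-101045938 and Fgf14 on the minus strand at chr14:123977907-124677127. The counts were made on mm9 per the submitters' processing notes and are joined to these loci by symbol only.

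RefSeq promoter windows on GRCm38.p6, each of the 250 bases before an annotated start, were found for 6 of the 8 genes, and none was used for Scn3a and Scn3b. Shown 5′ to 3′ on the strand of the gene, with each CpG in capitals, are the bases before Scn1a at chr2:66440841-66441087 (minus strand) and before the 2 starts of Scn2a1 at chr2:65620519-65620768 and chr2:65668436-65668685 (plus strand). The 3 bases next to the Scn1a start are left out because GENCODE places them in its first exon.
Scn1a: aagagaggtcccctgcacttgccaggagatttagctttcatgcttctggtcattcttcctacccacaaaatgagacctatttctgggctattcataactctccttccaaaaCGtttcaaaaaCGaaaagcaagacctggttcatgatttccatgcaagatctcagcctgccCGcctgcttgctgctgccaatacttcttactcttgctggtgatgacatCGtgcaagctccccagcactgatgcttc
Scn2a1 start 1: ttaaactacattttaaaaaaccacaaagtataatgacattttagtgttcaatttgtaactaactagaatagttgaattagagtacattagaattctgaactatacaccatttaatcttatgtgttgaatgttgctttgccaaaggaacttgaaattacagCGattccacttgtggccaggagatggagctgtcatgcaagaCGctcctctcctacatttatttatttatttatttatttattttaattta
Scn2a1 start 2: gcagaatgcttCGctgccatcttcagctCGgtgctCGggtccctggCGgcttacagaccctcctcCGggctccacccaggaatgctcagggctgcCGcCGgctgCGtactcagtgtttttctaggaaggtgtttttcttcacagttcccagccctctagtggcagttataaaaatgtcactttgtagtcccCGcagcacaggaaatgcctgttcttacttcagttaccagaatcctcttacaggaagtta
The Scn1a window held 4 CpG dinucleotides, and the Scn2a1 windows held 2 at the first start, with a GC content of 29.6%, and 9 at the second, with 53.2%. The median over the 32851 windows of all genes was 6. The neighbours Scn4b and Scn2b differed more, with 23 CpGs at a GC content of 66.0% in the Scn4b window and 1 at 38.4% in the Scn2b window. As many CpGs as in the Scn4b window, or more, were found in 13.3% of all windows. The first window of Scn8a held 30. The windows of Scn4b, Scn2b and Fgf14 are not shown because GENCODE starts these genes earlier and places part or all of the window in an exon.

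Of 3 motifs searched on both strands, TATA boxes (TATAAA), GC boxes (GGGCGG) and E-boxes (CANNTG), the Scn4b window held none. The Scn2b window held 2 E-boxes, and the Scn1a window and the first Scn2a1 window held 1 each. The second Scn2a1 window held 1 TATA box, 84 bases before the start. E-boxes were found in 66.2% of all such windows, GC boxes in 32.7% and TATA boxes in 12.4%. These matches describe the windows and are not binding sites.

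Levels can be compared between genes only per transcript length, here the longest GENCODE M21 transcript, whose ends may differ from those the authors counted. Scn2b was the highest, at 74.1 ± 5.20 CPM per kb (SD, n = 4 libraries), followed by Scn4b at 49.2 ± 7.57 CPM per kb. The alpha subunits Scn1a (27.7 ± 2.98 CPM per kb), Scn8a (27.6 ± 0.72) and Scn2a1 (23.6 ± 4.21) came next. Scn1a lay above Scn8a in 3 of 4 libraries, and Scn8a above Scn2a1 in 3 of 4, so these neighbours in the order did not differ beyond their spread. Fgf14 (12.3 ± 1.54 CPM per kb) and Scn3b (9.51 ± 3.82) followed, in that order in 3 of 4 libraries. Scn3a was the lowest, at 1.27 ± 0.502 CPM per kb, and lay below Scn3b in 4 of 4 libraries.

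**Figure D1:**
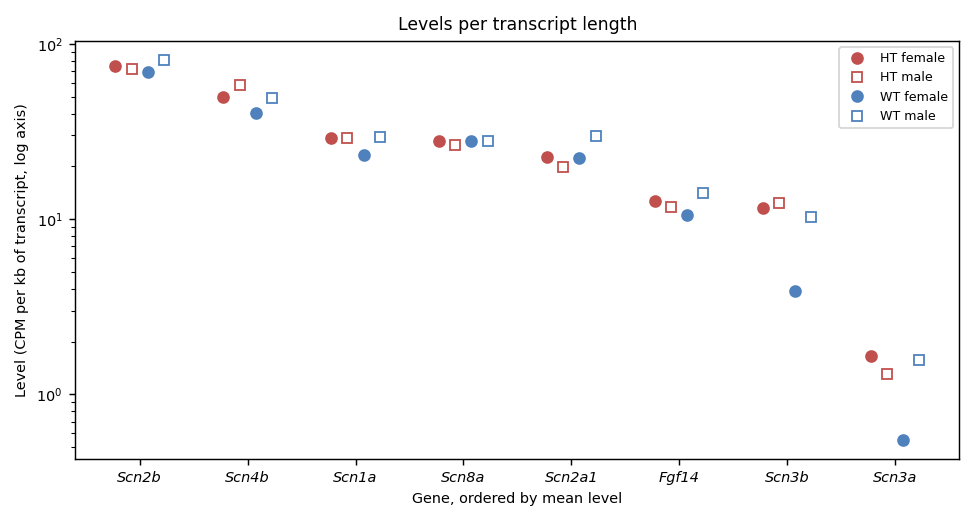
Level of each gene in each library, in CPM per kb of its longest transcript on a log axis, with heterozygotes in red and wild types in blue, females as filled circles and males as open squares. Scn2b is highest at a mean of 74.1 CPM per kb and Scn3a lowest at 1.27, and the 3 alpha subunits Scn1a, Scn8a and Scn2a1 overlap.

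The first comparison asked which of the 8 genes differed between HT and WT cerebella. In edgeR's quasi-likelihood fit, which had terms for genotype and sex, 0 of the 8 had an adjusted p under 0.05, where 0.0198% of all tested genes passed, 3 higher and 0 lower. An unadjusted p under 0.05 took in 1 of the 8, Scn4b on the higher side, where it took in 11.7% of all tested genes, 5.22% higher and 6.46% lower. DESeq2 called 0 of the 8 as well. The fitted log2 change was above 0 for 4 genes and below 0 for 4, with a median of 0.071 beside 0.0063 for all tested genes. Both heterozygotes lay above both wild types for 2 genes, Scn3b and Scn4b, and below both for 0, where 44.7% of all tested genes had groups that did not overlap, 22.1% above and 22.6% below.

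**Figure D2:**
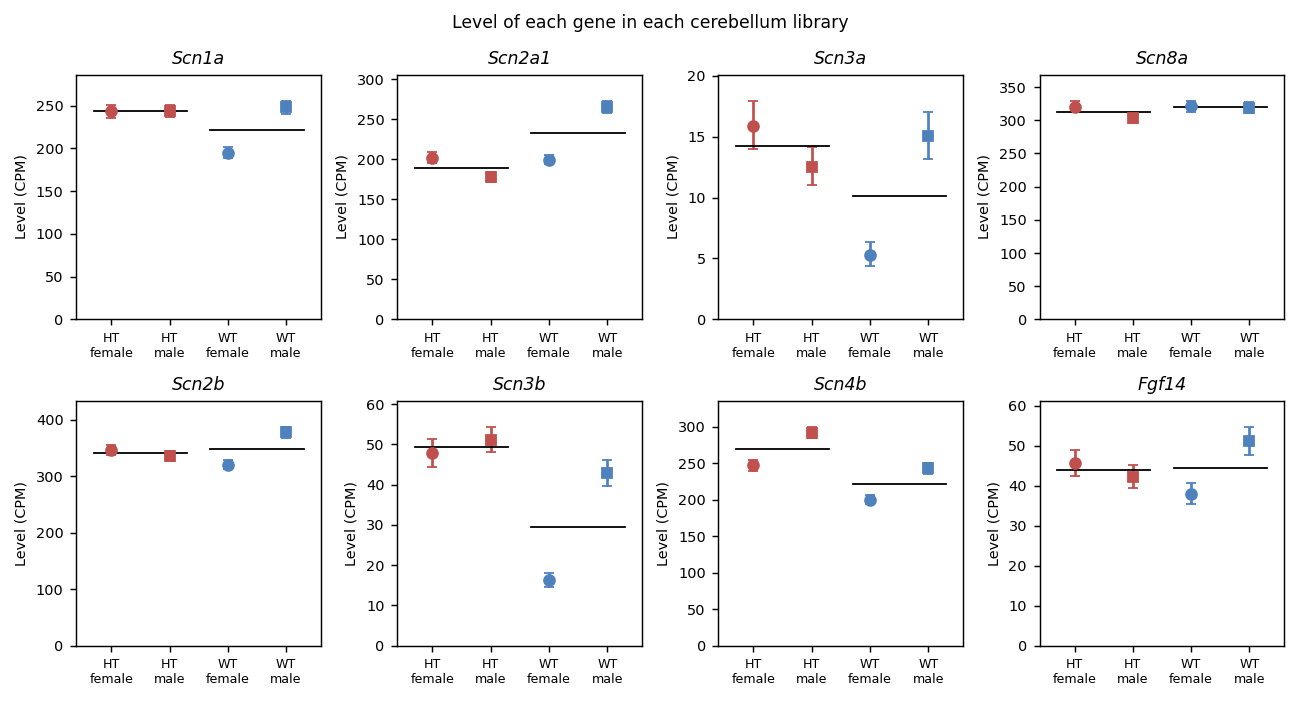
Level of each gene in CPM in the 4 libraries, with heterozygotes in red left of wild types in blue, females as circles and males as squares, 95% Poisson intervals as bars and the mean of each genotype as a line. Scn3a and Scn3b are lowest in the WT female, and the genotypes do not overlap for Scn3b and Scn4b.

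Among the alpha subunits, Scn1a stood at 243 CPM in the HT female and 243 CPM in the HT male, against 195 CPM in the WT female and 248 CPM in the WT male. The heterozygotes were alike and lay between the wild types. The log2 change was 0.15 ± 0.11 (SE, edgeR, adjusted p = 0.672), and it was -0.028 without the WT female and 0.32 without the WT male.

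Scn2a1 stood at 202 CPM in the HT female and 178 CPM in the HT male, against 199.5 CPM in the WT female and 265 CPM in the WT male. The WT male was high and the other 3 libraries lay close together, so that the genotypes overlapped. The mean was 189.6 ± 17.0 CPM in HT and 232 ± 46.3 CPM in WT (SD, n = 2 each), a log2 change of -0.28 ± 0.14 (SE, edgeR, adjusted p = 0.505). The change was -0.072 without the WT male and -0.48 (adjusted p = 1.38e-05) without the WT female, in fits with genotype as the only term, the second of which called 3.05% of all tested genes lower. Granule cell markers lay lower in the same heterozygous libraries: 0 of 20 had a log2 change above 0 and 20 below, the median was -0.43, and 0 had an adjusted p under 0.05, with 16 lower at an unadjusted p under 0.05, where 6.46% of all tested genes were. Their summed level was 6169 CPM in the HT female and 5586 CPM in the HT male, against 8255 CPM in the WT female and 7089 CPM in the WT male, with 0 markers at 0. Of the wild types, the female was the higher for this sum and the male was the higher for Scn2a1. The part of granule cell content in the Scn2a1 values was not tested, and in whole tissue fewer cells of a type and less RNA per cell cannot be told apart.

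Scn8a was the most even of the genes, at 321 CPM in the HT female, 304 CPM in the HT male, 321 CPM in the WT female and 319 CPM in the WT male. Its highest library was 1.06 times its lowest. The log2 change was -0.034 ± 0.10 (SE, edgeR, adjusted p = 0.935).

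Scn3a, the alpha subunit of immature brain, stood at 15.9 CPM in the HT female and 12.5 CPM in the HT male, against 5.29 CPM in the WT female and 15.01 CPM in the WT male. The WT female was low, with 109 counts and a 95% exact Poisson interval of 4.34 to 6.38 CPM that covers counting error only, and the other 3 libraries had 247 to 254 counts. The log2 change was 0.63 ± 0.54 (SE, edgeR, adjusted p = 0.747). It was -0.087 without the WT female and 1.42 without the WT male, so that the WT female alone sets its direction. After removal of a trend with transcript length and GC content it was 0.70 with an edgeR adjusted p of 0.0168, which takes it past the test. In that setting 1139 of 15117 tested genes passed, against 3 in the fit reported.

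Among the beta subunits, Scn4b stood at 247 CPM in the HT female and 292 CPM in the HT male, against 199.5 CPM in the WT female and 243 CPM in the WT male. The HT male was high and the WT female low, and the genotypes were parted by the narrow step between the HT female and the WT male. The mean was 269 ± 31.7 CPM in HT and 221 ± 30.8 CPM in WT (SD, n = 2 each), a log2 change of 0.29 ± 0.10 (SE) that did not pass (edgeR, adjusted p = 0.307). Its log2 ratio of single libraries was 0.31 in females and 0.26 in males, and the fit takes its residual from how far such a pair of ratios lies apart. Without the WT female the log2 change was 0.15, and without the HT male it was 0.16.

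Markers of large projection neurons, a list of genes for neurofilaments, fast potassium channels and transmitter synthesis in nuclear and brainstem neurons, had log2 changes mostly on the same side as Scn4b. For 18 of 20 the log2 change was above 0 and for 2 below, where it was above 0 for 7723 of 15117 tested genes. The median was 0.44. Of the list 1 passed the test, Th (1.15 ± 0.15, SE, edgeR adjusted p = 0.0473), where 0.0198% of all tested genes did. With a stricter filter on low counts, or with no sex term, 0 of all tested genes passed. Their summed level was 5043 CPM in the HT female and 5242 CPM in the HT male, against 4273 CPM in the WT female and 4631 CPM in the WT male, which is the order of Scn4b over the 4 libraries, with 0 markers at 0. Markers of Purkinje cells, another site of Scn4b, lay mostly lower, with 2 of 20 higher, 18 lower and a median of -0.32. The sums of the 12 choroid plexus markers had the same order over the libraries as Scn4b. They were 1567 CPM in the HT female and 2714 CPM in the HT male. In wild types they were 1473 CPM in the female and 1485 CPM in the male. Of these 12, 11 were higher and 1 lower, with a median of 0.55. Of 16 oligodendrocyte markers, 14 were higher and 2 lower. The order was thus not particular to projection neuron markers, and the part of these lists in the Scn4b values was not tested.

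Scn2b, which encodes a beta subunit linked to the pore by a disulfide bond, stood at 347 CPM in the HT female and 336 CPM in the HT male, against 320.2 CPM in the WT female and 378 CPM in the WT male. The heterozygotes lay between the wild types, with a log2 change of -0.026 ± 0.11 (SE, edgeR, adjusted p = 0.957). It was 0.093 without the WT male and -0.15 without the WT female.

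Scn3b stood at 47.8 CPM in the HT female and 51.1 CPM in the HT male, against 16.2 CPM in the WT female and 42.8 CPM in the WT male. The WT female was low, at 335 counts, and the WT male lay just under the heterozygotes. The mean was 49.4 ± 2.33 CPM in HT and 29.5 ± 18.8 CPM in WT (SD, n = 2 each), a 1.84-fold level and the largest fitted log2 change of the 8, 0.88 ± 0.40 (SE), which did not pass (edgeR, adjusted p = 0.549). The change was 0.21 (adjusted p = 0.348) without the WT female and 1.61 (adjusted p = 2.11e-31) without the WT male. Without the WT male 9.53% of all tested genes were called higher. With no filter on low counts the log2 change stayed at 0.88 and passed with an edgeR adjusted p of 0.0079. In that setting 553 of 18954 tested genes passed, against 3 in the fit reported.

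The low level of Scn3a and Scn3b in the WT female stood beside low markers of brainstem neurons in the same library. Of the 20 large projection neuron markers, 14 were lowest in the WT female, where 32.0% of all tested genes were. Tph2, the serotonin synthesis enzyme of raphe neurons, stood at 49.5 CPM in the HT female and 52.1 CPM in the HT male, against 5.63 CPM in the WT female and 52.2 CPM in the WT male. Slc17a6, a vesicular glutamate transporter, stood at 164 CPM in the HT female and 163 CPM in the HT male, against 66.4 CPM in the WT female and 153 CPM in the WT male. These markers were singled out after their values were seen, and their part in the Scn3a and Scn3b values was not tested.

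Fgf14 stood at 45.6 CPM in the HT female and 42.2 CPM in the HT male, against 38.0 CPM in the WT female and 51.1 CPM in the WT male. The heterozygotes lay between the wild types, and the log2 change was -0.0063 ± 0.15 (SE, edgeR, adjusted p = 0.992). It was -0.22 without the WT female, 0.21 without the WT male and 0.037 without the HT male, so its sign was not stable. In the reference, 220 exonic bases of Fgf14 overlap an antisense gene that was not counted, and the sources used here do not state how strand entered the counting.

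**Figure D3:**
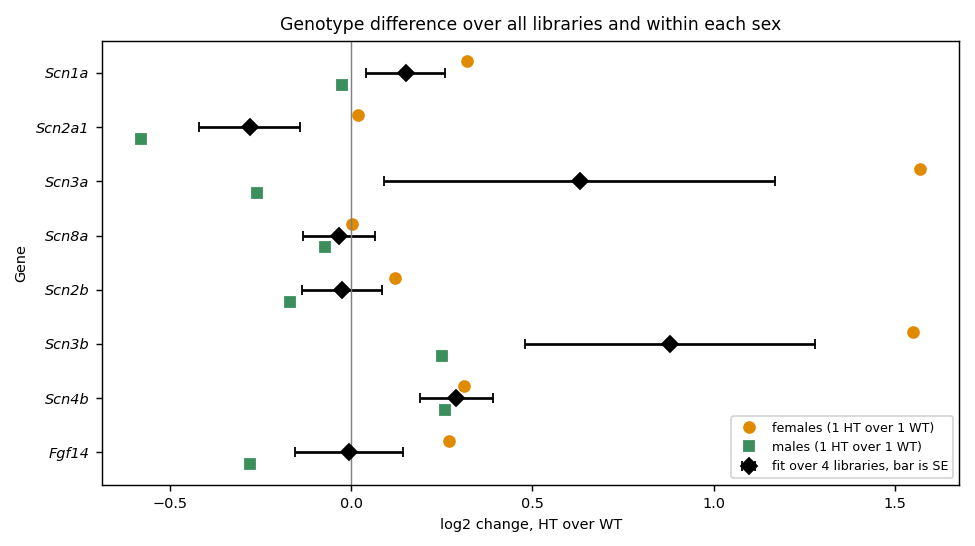
Log2 change of each gene, HT over WT, with the fit over all 4 libraries as black diamonds with SE bars, the female pair as circles and the male pair as squares. Scn4b has both pairs near the fitted 0.29, whereas Scn3a is at 1.57 in females and -0.26 in males.

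Spread between the libraries was larger in WT for most of the 8 genes, as it was for most tested genes. The SD of the CPM was smaller in HT than in WT for 6 of 8 genes, where that held for 63.5% of all tested genes. The WT female had the lowest level of 6 of the 8 genes, all but Scn2a1 and Scn8a, where it was lowest for 32.0% of all tested genes. The WT male had the highest level of 4 of the 8, Scn1a, Scn2a1, Scn2b and Fgf14, where it was highest for 25.4% of all tested genes. With the WT male left out, 4 of the 8 passed the test on the higher side (Scn1a, Scn3a, Scn3b and Scn4b), where 9.53% of all genes tested passed on that side. With the WT female left out 1 passed on the lower side (Scn2a1), where 3.05% of all genes tested did. Each such fit takes its spread from the 1 genotype that keeps both libraries and assumes that the lone library varies like them.

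**Figure D4:**
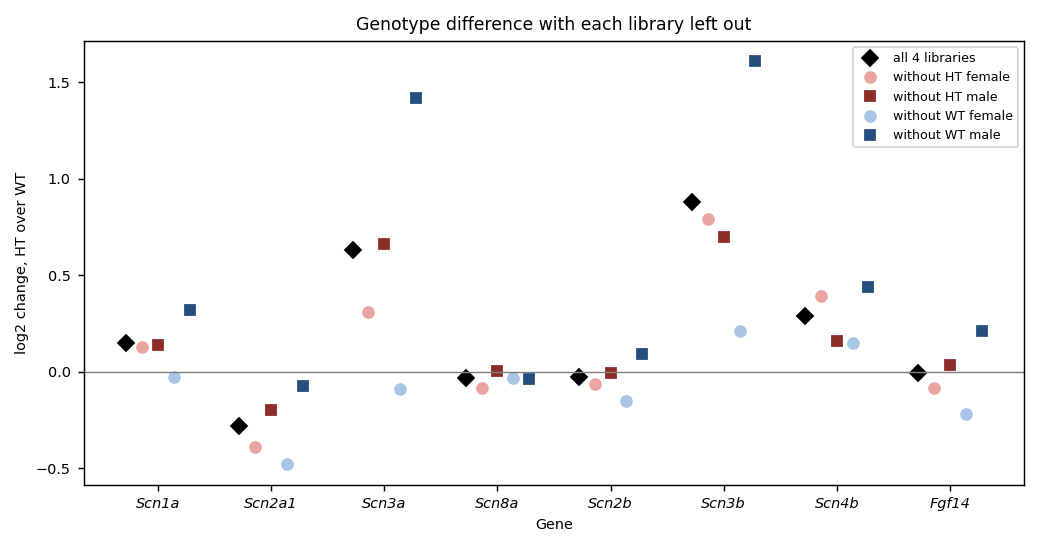
Log2 change of each gene, HT over WT, over all 4 libraries and with each library left out in turn. Scn3b runs from 0.21 without the WT female to 1.61 without the WT male, and Scn8a stays between -0.084 and 0.0054.

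The balanced design also allowed a comparison of females with males. In the same fit, 0 of 8 genes passed at an adjusted p of 0.05, where 0.0595% of all tested genes did, and 1 had an unadjusted p under 0.05, where 3.82% of all tested genes did. That gene was Scn4b, with a mean of 223 ± 33.5 CPM in females and 267 ± 34.4 CPM in males (SD, n = 2 each), a log2 change of -0.26 ± 0.10 (SE, edgeR, adjusted p = 0.994). Scn3b (-0.72 ± 0.40, SE) and Scn3a (-0.54 ± 0.54, SE) had the largest sizes, again with the low WT female among the females. Scn8a alone was above 0, at 0.042 ± 0.10 (SE). All 8 had an adjusted p of 0.994, and DESeq2 called 0.

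By CPM the heterozygote was above the wild type for 7 of 8 genes in females, all but Scn8a, and for 2 of 8 in males, where 49.0% of all tested genes were higher in females and 50.3% in males. The median log2 ratio of single libraries was 0.29 in females and -0.12 in males, and the direction by CPM differed between the sexes for 5 of 8, where it did for 41.7% of all tested genes. Scn3a had a ratio of 1.57 in females and -0.26 in males, Scn2a1 0.019 in females and -0.58 in males, and Fgf14 0.27 in females and -0.28 in males. The difference of the genotype effect, female minus male, was tested in a fit without a term for sex itself. It passed for 0 of 8 genes, where 0.0198% of all tested genes passed, and 2 had an unadjusted p under 0.05, where 3.55% of all tested genes did. These were Scn3a, with a difference of 1.80 ± 0.56 (SE), and Scn2a1, with 0.60 ± 0.22 (SE), both at an edgeR adjusted p of 0.998. With the length and GC trend removed the Scn2a1 difference was 0.29.

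Ratios of 2 genes within a library do not depend on depth or scaling, and 6 pairs were taken. The log2 ratio of Scn1a to Scn2a1 counts was 0.27 in the HT female and 0.45 in the HT male, against -0.033 in the WT female and -0.096 in the WT male. Both heterozygotes lay above both wild types, with a mean of 0.36 ± 0.13 in HT and -0.065 ± 0.045 in WT (SD, n = 2 each) and a difference of 0.43. The log2 ratio of Scn4b to its neighbour Scn2b was -0.49 in the HT female and -0.20 in the HT male, against -0.68 in the WT female and -0.64 in the WT male, again without overlap and with a difference of 0.31, which was 0.17 without the HT male and 0.46 without the HT female. With a library left out, the difference for Scn1a to Scn2a1 lay between 0.34 and 0.52. The sequences printed above stand before the genes of the first of these ratios. The smallest p an exact permutation test can give with 2 libraries against 2 is 0.333, so that no ratio could pass. Groups that did not overlap were common in these data, at 44.7% of all tested genes by CPM. The share over all pairs of genes was not taken.

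The log2 ratio of Scn3b to Scn2b was -2.86 in the HT female and -2.72 in the HT male, against -4.30 in the WT female and -3.14 in the WT male. It did not overlap between the genotypes either, and the WT female stood far below the rest. The difference was 0.93, and it was 0.35 without the WT female and 1.51 without the WT male. The other 3 ratios overlapped between the genotypes. Scn8a to Scn2a1 differed by 0.24 (HT minus WT, log2), which was 0.036 without the WT male and 0.45 without the WT female. Scn3a to Scn1a differed by 0.52, which was -0.064 without the WT female and 1.09 without the WT male. Fgf14 to Scn8a, the modulator to the channel of initial segments and nodes, averaged -2.83 ± 0.024 in HT and -2.86 ± 0.31 in WT (SD, n = 2 each), and its difference of 0.029 was -0.19 without the WT female and 0.25 without the WT male.

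**Figure D5:**
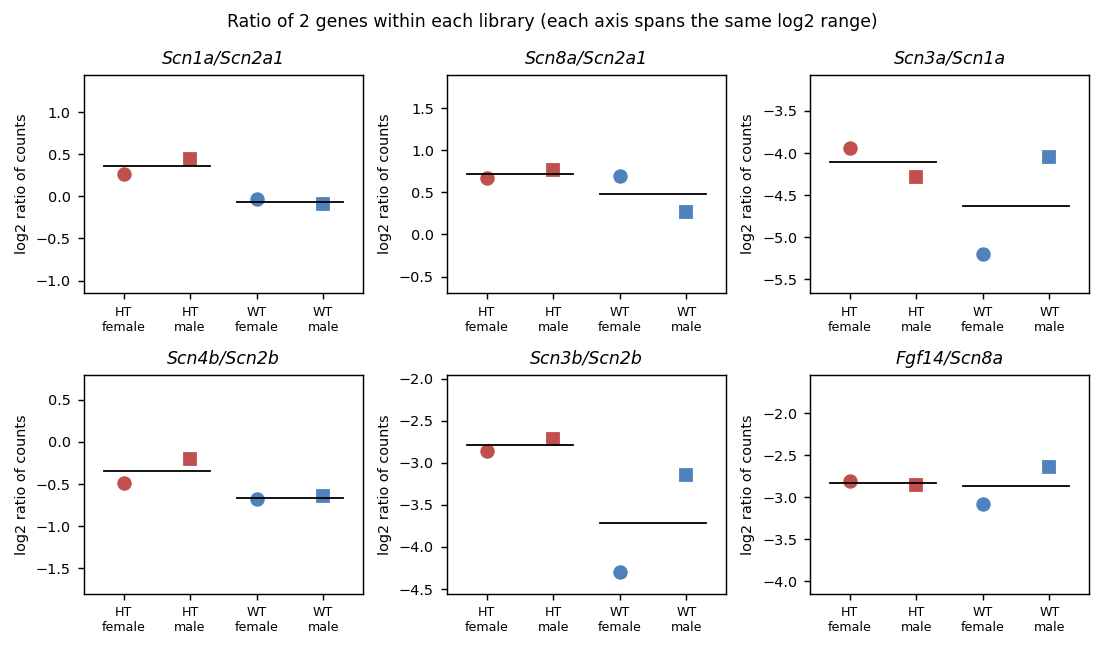
Log2 ratio of the counts of 2 genes in each library for 6 pairs, with heterozygotes in red left of wild types in blue, females as circles, males as squares and genotype means as lines. Scn1a/Scn2a1, Scn4b/Scn2b and Scn3b/Scn2b do not overlap between the genotypes.

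The other sodium channel subunits and the partners of the channel were read as lists, by counts and medians beside the median of 0.0063 for all tested genes. Of 11 other channel genes, including the sodium leak channel Nalcn with its partners, 8 were tested, with 4 higher, 4 lower, a median log2 change of 0.015 and 0 past the test. Unc80, a scaffold of the leak channel complex, stood at 353 CPM in the HT female and 316 CPM in the HT male, against 405 CPM in the WT female and 417 CPM in the WT male, and had -0.30 ± 0.11 (SE, edgeR, adjusted p = 0.306). Scn7a and Scn9a stood at 0.922 to 6.44 CPM over the 4 libraries and were lowest in the WT female, as Scn3a was. Scn4a, Scn10a and Scn11a, channels of muscle and sensory neurons, had 0 to 5 counts a library and were not tested.

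Of the 3 other FGF homologous factors, 1 was higher and 2 were lower, with a median of -0.11 and 0 past the test. Fgf13 stood at 52.0 CPM in the HT female and 50.5 CPM in the HT male, against 32.6 CPM in the WT female and 52.6 CPM in the WT male, another gene for which the WT female was low. Its log2 change was 0.31 ± 0.17 (SE, edgeR, adjusted p = 0.552). Fgf12 had -0.12 ± 0.11 (SE) and Fgf11 -0.11 ± 0.11 (SE).

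Of 24 genes of the axon initial segment and node, 11 were higher and 13 lower, with a median of -0.014 and 0 past the test. At an unadjusted p under 0.05 there were 2 higher and 2 lower, where 5.22% of all tested genes were higher and 6.46% lower. Tnr, an extracellular matrix protein of nodes and perineuronal nets, had 0.47 ± 0.16 (SE, edgeR, adjusted p = 0.294) and Map7d2, a microtubule-binding protein, 0.23 ± 0.11 (SE). Cntn2, a contactin of the juxtaparanode, had -0.27 ± 0.11 (SE) and Adam22, the receptor of LGI proteins, -0.24 ± 0.11 (SE). Ank3, whose product ankyrin-G anchors sodium channels at the initial segment, was chosen after its values were seen. It stood at 258 CPM in the HT female and 245 CPM in the HT male, against 269 CPM in the WT female and 270.2 CPM in the WT male, with -0.098 ± 0.10 (SE, edgeR, adjusted p = 0.768).

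Of 28 regulators of sodium channels, 10 were higher and 18 lower, with a median of -0.047 and 0 past the test. An unadjusted p under 0.05 took in 1 higher and 5 lower, against the same 5.22% and 6.46% of all tested genes. Csnk2a1, a catalytic subunit of casein kinase that raises the affinity of the channel for ankyrin-G, had -0.34 ± 0.11 (SE, edgeR, adjusted p = 0.249). Mapk14, a stress-activated kinase that acts on Nav1.6, had -0.31 ± 0.11 (SE), Nedd4l, a ubiquitin ligase of channels, -0.29 ± 0.11 (SE) and Rbfox3, a neuronal splicing factor that is also on the granule cell list, -0.28 ± 0.10 (SE). Of 10 genes of the sodium pump, which restores the gradient, 4 were higher and 6 lower, with a median of -0.030 and 0 past the test. Fxyd7, a brain regulator of the pump, had 0.35 ± 0.14 (SE, edgeR, adjusted p = 0.350) and the beta subunit Atp1b3 -0.19 ± 0.11 (SE, edgeR, adjusted p = 0.520).

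The genes most like each member over the 4 libraries were found by Euclidean distance between centred log2 CPM, among 11862 genes with a mean of at least 5 CPM. With 4 libraries many genes lie close: 4369 genes lay within 0.2 of Scn8a, 2842 within 0.2 of Scn2b and 1594 within 0.2 of Scn1a. Scn3a and Scn3b had far fewer, 10 and 22. The nearest to Scn3b were Cbln2 (distance 0.0338), Kcna4 (0.0621) and Slc10a4 (0.0793), and the nearest to Scn3a were Grm5 (0.103), Col25a1 (0.112) and Tox (0.138). Cbln2, a synapse organiser, stood at 22.3 CPM in the HT female and 23.5 CPM in the HT male, against 7.47 CPM in the WT female and 19.3 CPM in the WT male. Grm5, a metabotropic glutamate receptor, stood at 39.6 CPM in the HT female and 31.9 CPM in the HT male, against 12.7 CPM in the WT female and 39.3 CPM in the WT male. Both were low in the WT female, which follows from their choice by likeness to Scn3b and Scn3a over the same libraries. The nearest to Scn4b were Nudt17 (0.0308), Abhd2 (0.0359) and Ppap2a (0.0416), to Scn2a1 Arntl2 (0.0256), Ccnyl1 (0.0333) and Pla2g4e (0.0473), and to Scn1a Macrod2 (0.0148), Herc3 (0.0188) and Dnajc6 (0.0235). The nearest to Scn8a were Brd8, Irak2 and Phkb (0.0147 to 0.0161), to Scn2b Ppp2r5e, Trim32 and Acsl3 (0.00352 to 0.0185), and to Fgf14 Nebl, B3galt2 and Yae1d1 (0.0187 to 0.0250).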

How the data were processed

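Raw counts of reads per gene symbol, 1 column per library, are the authors' deposited values. Stranded mRNA libraries were sequenced in 1 lane, per the labels' protocols. The submitters' processing notes name STAR, featureCounts, FastQC, edgeR and the build mm9, with no version or setting. The sources used here do not state how reads shared between the similar alpha subunits were treated.

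Genotype and sex came from the labels. Genes were kept with edgeR's filterByExpr (15117 of 24015, 99.95% of counts, factors 0.999 to 1.00 by TMM). Counts were fitted with edgeR (4.0.16, R 4.3.3), robust quasi-likelihood with sex and genotype (1 residual degree of freedom), Benjamini-Hochberg over all tested genes at 0.05, two-sided. An SE is the log2 change over the root of F. Ratios of single libraries used a prior count of 2. Members and lists were chosen with earlier results of these data known. Named genes were the members, Arid1b, up to 4 genes of smallest p per list and the 3 nearest genes. Values of some listed genes are not reported here. Scripts were tested on simulated data. Alternatives were DESeq2 1.42.0, limma-voom (limma 3.58.1), the likelihood ratio test, other scalings, filters and threshold, no sex term, a length and GC correction (lengths for 99.3% of tested genes) and each library left out.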

Additional observations from a re-analysis of the deposited data

How the results depend on the processing

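Of the 8 genes, 0 passed the genotype test in the fit reported and under DESeq2, limma-voom, the likelihood ratio test, DESeq2 size factors, library totals, a stricter filter, no sex term and an adjusted p of 0.1. With no low-count filter 1 passed (Scn3b), and with the length and GC trend removed 1 passed (Scn3a). With a library left out the count was 0 to 4: 4 without the WT male, 1 without the WT female and 0 without either HT library. The count of all genes called, 3 in the fit reported, was 34 with DESeq2, 166 with the likelihood ratio test, 7 with DESeq2 size factors, 13 with library totals, 553 with no filter, 0 with the stricter filter, 0 with no sex term, 1139 with the length and GC trend removed and 7 at an adjusted p of 0.1. It ran from 0 without the HT male to 2730 without the WT male, with 658 without the WT female. The cause was not tested.

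Fgf14 turned to 0.081 with the length and GC trend removed. With a library left out, Scn1a ran from -0.028 to 0.32, Scn3a from -0.087 to 1.42, Scn8a from -0.084 to 0.0054, Scn2b from -0.15 to 0.093 and Fgf14 from -0.22 to 0.21. Scn2a1 (-0.48 to -0.072), Scn3b (0.21 to 1.61) and Scn4b (0.15 to 0.44) kept their sign. The female minus male difference turned to -0.20 for Scn8a and -0.040 for Scn4b with the length and GC trend removed. For sex and for that difference 0 of the 8 passed under any alternative run. No paired analysis was possible because the labels number no replicates, and the sex term already joins the 2 libraries of each sex. The lowest count of the 8 genes in any library was 109, and 2 libraries a genotype limit precision.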

Other observations

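The cluster on chromosome 2 holds 9 genes of the table from Scn3a to Scn7a, 8 of them tested. These genes were chosen for their position after the values of the sodium channels were seen. Csrnp3, next to Scn2a1 and read from the same strand, stood at 47.8 CPM in the HT female and 47.7 CPM in the HT male, against 28.6 CPM in the WT female and 54.6 CPM in the WT male, with a log2 change of 0.27 ± 0.23 (SE, edgeR, adjusted p = 0.727). Ttc21b, on the side of Scn1a where that gene ends, had -0.029 ± 0.15 (SE, edgeR, adjusted p = 0.966). Scn9a had 0.29 ± 0.30 (SE) and Scn7a 0.72 ± 0.46 (SE). In edgeR 0 of the cluster passed the test, where 0.0198% of all tested genes did. An unadjusted p under 0.05 was met by 0 of the cluster, where 11.7% of all tested genes met it. The WT female held the lowest level of 7 of the 9 genes, where it did for 32.0% of all tested genes. The 7 include Scn3a and Scn1a, already counted above, and Galnt3, which was not tested and stood at 0.291 to 0.502 CPM.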
